A study of Eptesicus fuscus and Canis lupus familiaris and Equus caballus with 4 samples.

Results

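The miR-486 stretch was described from 5 listed hairpin candidates in testis small RNA, 2 from the big brown bat Eptesicus fuscus and 3 from the dog, of 1453 candidates in all. Such a candidate is a genomic segment predicted to be transcribed into a stem and loop, with small RNA reads on at least 1 side of the stem. The members were all rows of the bat list on contig ALEH01050602.1 and all rows of the dog list that overlap chromosome 16, 23958924 to 23959066, on either strand. The bat list held 762 rows and the dog list 252, and the horse list, with 439 rows, was searched for the same sequence. Each list came from 1 library of adult testes, sequenced as 50 bp single-end reads of the small RNA fraction. The series holds 4 libraries, and the fourth, from a second bat, was not analysed here. With 1 analysed library per species there was no replicate, and no test between species was made. Whole testis was used, so fewer cells of a type and less RNA per cell cannot be told apart.

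MicroRNAs are short RNAs cut from a hairpin transcript. The strand of the cut duplex that is kept guides silencing of messenger RNAs, which it recognises mainly through the seed, bases 2 to 8 from its 5′ end. In human and mouse, miR-486 lies in an intron of ANK1, the gene for the red cell membrane protein ankyrin-1, and is known for its abundance in red blood cells and striated muscle. The RefSeq gene table of the bat assembly DD_ASM_mEF_20220401 has 1 entry for MIR486, which lies within the span of ANK1 with NKX6-3 as the next gene. The candidate lists carry no miRNA names. The name miR-486 was therefore given from general knowledge of the mature sequence and not from a file, and whether the listed bat contig is the RefSeq MIR486 gene was not tested.

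The mature sequences are shown because they carry both the identity of the miRNA and the strand question. The seed is in capitals. The 5p sequence comes from the first arm of the hairpin and the 3p sequence from the second.
Bat Candidate_459, 5p, minus strand: tCCTGTACtgagctgccccgagg
Bat Candidate_460, 5p, plus strand: tCCTGTACtgagctgccccgagc
Dog Candidate_165, 5p, minus strand: tCCTGTACtgagctgccccgagct
Dog Candidate_155, 3p, minus strand: tCGGGGCAgctcagtacaggat
Dog Candidate_144, 3p, plus strand: tCGGGGCAgctcagtacaggatg

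The first 22 bases were identical in both bat rows and the dog 5p row, and all 3 shared 1 seed. Bat Candidate_460 matched the dog row over its whole 23 bases, whereas bat Candidate_459 differed from it at its last base. Both dog 3p rows shared their first 22 bases and a second seed. Each listed mature sequence is a slice of the listed hairpin, so its first and last bases do not show that a read starting or ending there was sequenced. The seeds follow from the listed first base, and the 3p rows Candidate_144 and Candidate_155 held only 12 and 5 reads.

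The hairpins are shown because both strands of the stretch fold. Capitals mark the listed mature sequence.
Bat Candidate_460, plus strand, ALEH01050602.1, 7339 to 7469: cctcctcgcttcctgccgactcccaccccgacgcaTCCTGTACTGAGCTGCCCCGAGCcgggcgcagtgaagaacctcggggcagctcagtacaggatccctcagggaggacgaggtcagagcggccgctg
Bat Candidate_459, minus strand, ALEH01050602.1, 7350 to 7460: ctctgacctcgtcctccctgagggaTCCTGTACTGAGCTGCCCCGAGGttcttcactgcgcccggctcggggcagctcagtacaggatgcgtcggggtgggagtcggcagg
Dog Candidate_165, minus strand, chromosome 16, 23958924 to 23959066: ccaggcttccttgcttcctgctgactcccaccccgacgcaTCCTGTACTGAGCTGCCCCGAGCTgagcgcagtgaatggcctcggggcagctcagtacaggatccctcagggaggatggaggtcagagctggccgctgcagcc

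Dog positions are on CanFam3.1. The submitters' processing notes name this dog build for the bat and horse libraries too, but the bat rows lie on contigs named ALEH, whose build the sources used here do not name. The remaining dog rows were Candidate_155 at 23958924 to 23959062 on the minus strand and Candidate_144 at 23958933 to 23959063 on the plus strand. All 5 rows were predicted by 5 of the 5 models of the authors' program. This was not particular to the stretch, since rows with 1 read, such as bat Candidate_27 and dog Candidate_31, also had all 5 models.

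The 5p arm of miR-486 carried nearly all reads of the stretch in the dog and all listed reads in the bat. In the bat, Candidate_459 listed 276 reads (exact Poisson 95% interval 244 to 311) and Candidate_460 listed 273 (242 to 307). In the dog, Candidate_165 listed 37280 reads (36903 to 37660), Candidate_144 listed 12 (6.20 to 21.0) and Candidate_155 listed 5 (1.62 to 11.7). These intervals and those below cover counting error only, since reads without molecular identifiers are not independent molecules.

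The miR-486 rows took different places in the lists of their species. Both bat rows summed to 549 reads, or 0.616% of the 89091 reads listed for the bat (exact Clopper-Pearson 95% interval 0.566 to 0.670), and Candidate_459 alone to 0.310% (0.274 to 0.349). The sum may count the same reads on both strands, in which case the share of 1 row applies. The 3 dog rows summed to 37297 reads, or 58.8% of the 63429 listed for the dog (58.4 to 59.2). The listed reads are sums over rows, and rows with an identical mature sequence may repeat the same reads. With each identical mature sequence counted once, the shares were 0.701% in the bat and 68.4% in the dog. The intervals of the bat and dog shares did not overlap, but they say nothing of variation between animals, and the denominators were unlike. All reads in the authors' analysis could be bounded from the deposited fractions, at 98889 to 99340 in the bat and 507211 to 512667 in the dog. The listed reads were thus most of that total in the bat and a small part of it in the dog. Against that total, the most-read miR-486 row held 0.278 to 0.279% in the bat and 7.27 to 7.35% in the dog. The sources used here do not say whether the bat and dog totals follow 1 definition.

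**Figure D1:**
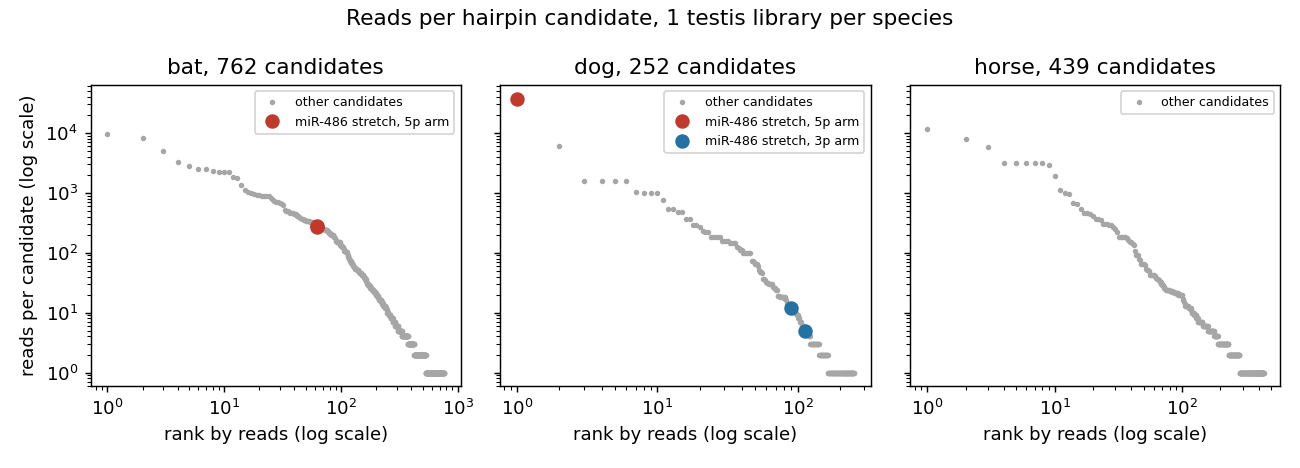
Reads per hairpin candidate (vertical axis, log scale) against rank by reads (horizontal axis, log scale) in the bat, dog and horse list, 1 library each. Red points are 5p rows and blue points 3p rows of the miR-486 stretch; the bat rows sit at ranks 62 and 63 and overlap, and the dog 5p row is at rank 1.

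By reads, Candidate_459 ranked 62 and Candidate_460 ranked 63 of the 762 bat rows, between Candidate_380 with 296 reads and Candidate_889 with 266. The bat list was led by Candidate_602 with 9487 reads. In the dog, Candidate_165 ranked 1 of 252, and the next row, Candidate_353, listed 5968 reads. The dog 3p rows Candidate_144 and Candidate_155 ranked 90 and 112, with 12 and 5 reads in a list whose median was 3 reads. Thus the 5p arm led the dog list and the bat 5p rows lay well below their leader. The dog 3p rows held few reads, though more than the median of their list.

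The dog 5p row held both many distinct read sequences and many reads for each of them. Candidate_459 held 31 distinct sequences and Candidate_460 held 30, that is 8.90 and 9.10 reads per distinct sequence. Dog Candidate_165 held 132, more than any other dog row, at 282 reads per distinct sequence. That ratio was above 99.6% of the dog list. The 3p rows Candidate_144 and Candidate_155 held 5 and 4 distinct sequences at 2.40 and 1.25 reads each. Length and end variants and sequencing errors of an abundant miRNA all count as distinct sequences, and the files do not separate them.

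The bat miR-486 rows lay inside the range of bat rows of similar read count. The other 44 bat rows within 1.5 times the reads of Candidate_459 had a median of 35.5 distinct sequences, with a range of 6 to 93. No other dog row lay within 1.5 times the reads of Candidate_165. For comparison, the dog row Candidate_353 listed 46 distinct sequences, the bat leader Candidate_602 listed 58 for its 9487 reads, and the horse leader Candidate_640 listed 87 for 11811 reads. The highest number of distinct sequences in the bat list was 148.

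**Figure D2:**
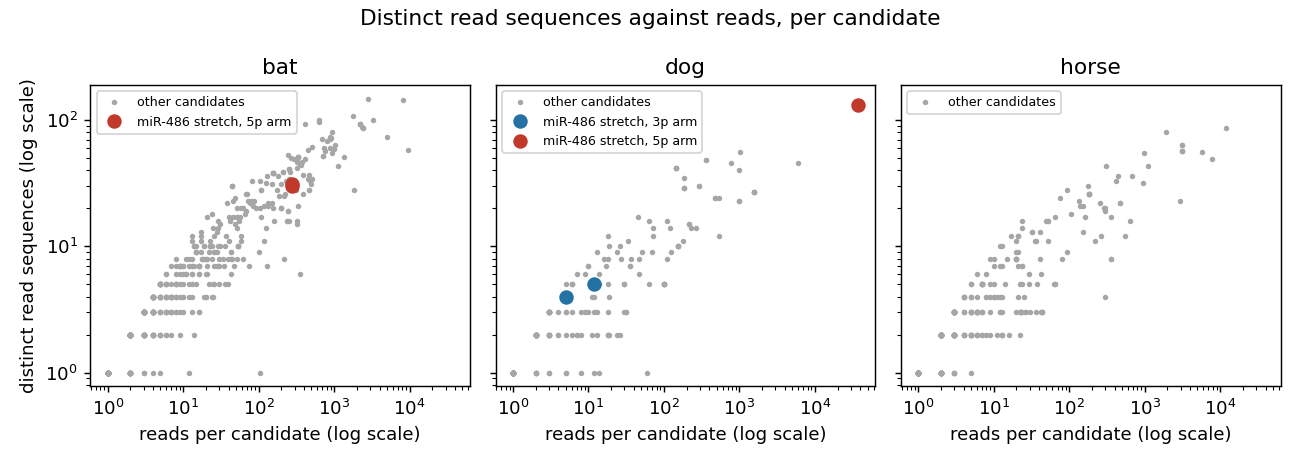
Distinct read sequences (vertical axis, log scale) against reads (horizontal axis, log scale) for each candidate in the bat, dog and horse list. The bat miR-486 rows, with 31 and 30 distinct sequences, lie within the cloud of bat candidates, and dog Candidate_165, with 132, lies beyond all other dog candidates on both axes.

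On the arms, the dog listed both products of the hairpin and the bat only 5p. On the dog minus strand, Candidate_165 gave 7456 5p reads for each 3p read of Candidate_155, so the 3p row held 0.0134% of the reads of these rows (exact Clopper-Pearson 95% interval 0.00435 to 0.0313). With both 3p rows, whose 17 reads may in part be the same reads listed on both strands, 3p held 0.0456% (0.0266 to 0.0730). The first 22 bases of the 3p sequence were present once in each bat hairpin, and no bat row listed them as mature. The bat 5p rows held only 276 and 273 reads. The dog had 7456 5p reads per 3p read, or 2193 with both 3p rows. At such ratios a 3p row could be missing from the bat list through depth alone, and whether arm use differed was not tested. In the fold of Candidate_165 the listed 5p and 3p sequences formed 21 pairs with each other. The 3p end ran 1 base past the partner of the first 5p base, and the 5p end ran 3 bases past the partner of the first 3p base. As background, Drosha and Dicer, the enzymes that cut a miRNA duplex from its hairpin, leave staggered 3′ ends. The ends used here are those of the listed sequences, which are slices of the hairpin, so where the enzymes cut was not tested.

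**Figure D3:**
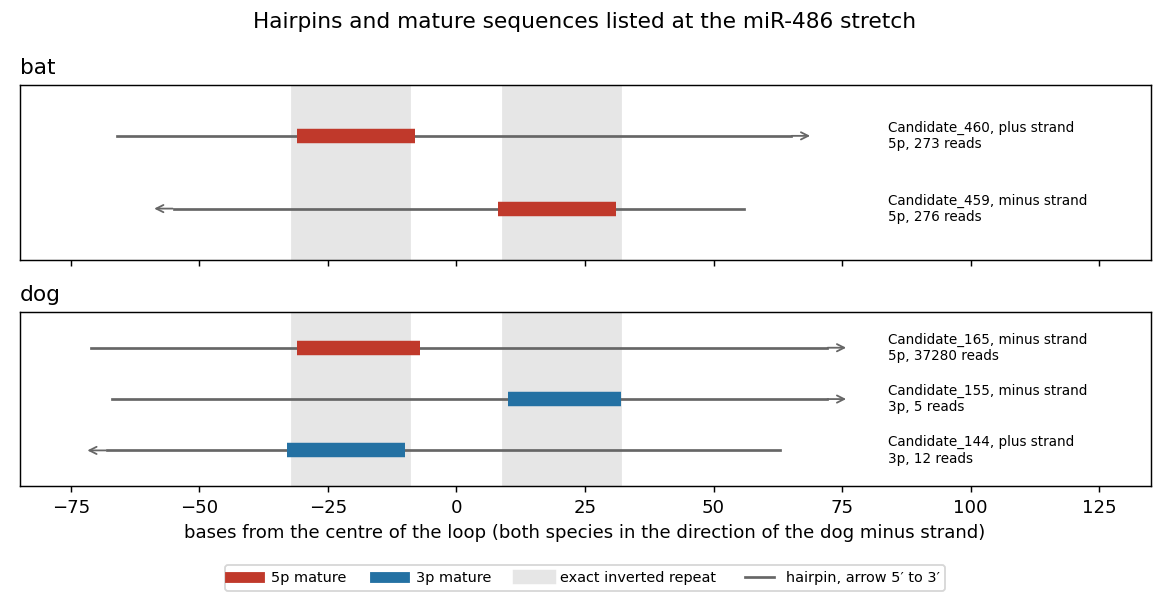
Listed hairpins (grey lines, arrow 5′ to 3′) and mature sequences (red 5p, blue 3p) against the distance in bases from the centre of the loop, for the bat and the dog, both drawn in the direction of the dog minus strand. Shaded blocks are the exact inverted repeat of 23 bases on each side of a loop of 18 bases; the bat lists 5p on both strands with 273 and 276 reads, and the dog lists 5p on the minus strand and 3p on both.

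On the strands, the bat listed the same miRNA from both strands of 1 stretch. The hairpins of Candidate_459 and Candidate_460 overlapped by 111 bases, and the reverse complement of Candidate_459 lay whole within Candidate_460. Their counts differed by 3 reads and 1 distinct sequence, or 1.09% of the larger count. Every listed hairpin of the stretch, in the bat and the dog, held an exact inverted repeat with arms of 23 bases around a loop of 18 bases. Reading either strand from its 5′ end therefore gives the same 5p and the same 3p sequence up to the end of the arm.

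Of each listed mature sequence, 22 bases lay inside the repeat. Both bat 5p rows ran 1 base past it, the dog 5p row ran 2 bases past it and Candidate_144 ran 1 base past it. Candidate_155 lay wholly inside the repeat, so its sequence occurred unchanged on the other strand. Reads confined to these 22 bases fit both strands equally, and the lists do not give single reads. Which strand the bat reads came from, and how the authors' program placed reads that fit both strands, was not tested.

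The dog list was asymmetric where the bat list was not. The first 22 bases of the 5p sequence occurred once on each dog strand, as in the bat, but 5p was listed on the dog minus strand only. Dog 3p was listed on both strands, with 12 reads on the plus strand and 5 on the minus strand. The Poisson intervals of these counts overlapped. The same reads may be listed on both strands, however, so the overlap does not show equal counts. In the lists the strand with the dog 5p row corresponded to the bat plus strand, that of Candidate_460.

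Both strands folded into stable hairpins in both species, and the strand without the dog 5p row had the lower predicted energy. Minimum free energies came from RNAfold, where a more negative value means a more stable fold. In the bat, the 111 bases of Candidate_459 had -76.0 kcal/mol on the listed minus strand and -65.5 on the plus strand. The 131 bases of Candidate_460 had -70.3 on the listed plus strand and -80.6 on the minus strand. In the dog, the 143 bases of Candidate_165 had -76.6 on the listed minus strand and -86.0 on the plus strand. The 131 bases of dog Candidate_144 had -79.4 on the listed plus strand and -72.3 on the minus strand. The bat minus strand and the dog plus strand, which are the same orientation of the stretch, were thus the lower ones.

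Per base, the 5 listed hairpins folded more stably than the median of the other rows of their lists. Bat Candidate_459 had -0.685 kcal/mol per base and Candidate_460 had -0.537, where the other 760 bat rows had a median of -0.414. Of these, 28 were at or below Candidate_459 and 114 at or below Candidate_460. The dog rows Candidate_144, Candidate_155 and Candidate_165 had -0.606, -0.537 and -0.536, where the other 249 dog rows had a median of -0.385. In the dog, 3 other rows were at or below Candidate_144, 10 at or below Candidate_155 and 11 at or below Candidate_165.

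Long exact inverted repeats were few in each list, and in the bat and dog the miR-486 5p rows had the most reads among them. The longest exact inverted repeat had a median arm of 8 bases in the bat list, 6 in the dog list and 7 in the horse list. Arms of at least 23 bases were found in 34 of the 760 other bat rows, in 1 of the 249 other dog rows and in 3 of the 439 horse rows. None of these 34 bat rows reached 10 reads, the most being 5, whereas the miR-486 rows had 276 and 273. Low counts were usual, with a median over all rows of 3 reads in each list. A median does not give the share of all bat rows with at least 10 reads, so whether these 34 rows were unusual was not tested. The other dog row, Candidate_7, had 26 reads, and the horse rows had at most 2.

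**Figure D4:**
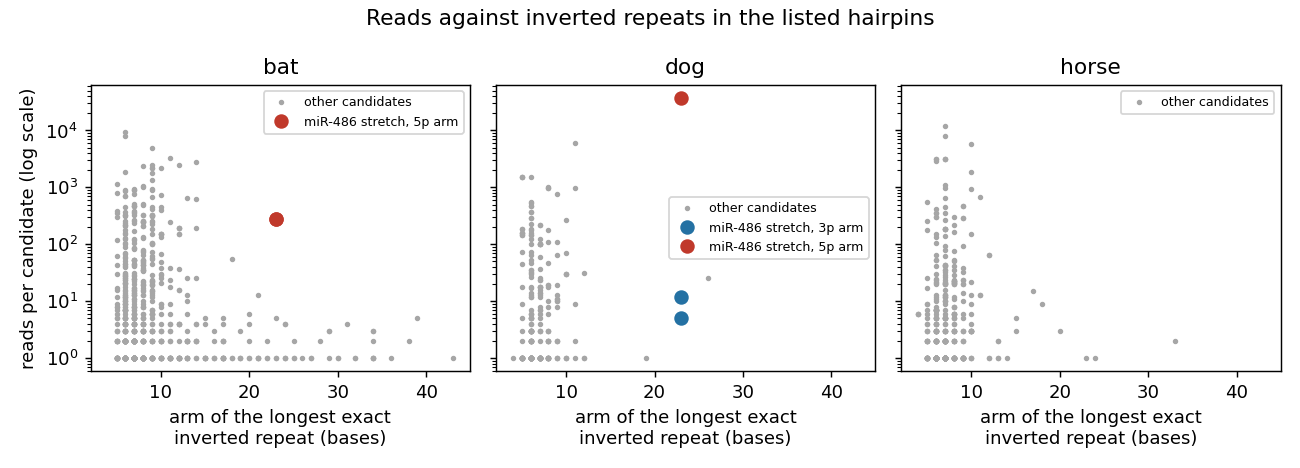
Reads per candidate (vertical axis, log scale) against the arm length in bases of the longest exact inverted repeat in its hairpin (horizontal axis) for the bat, dog and horse list. The bat 5p rows (red, overlapping) and the dog rows (red 5p, blue 3p) of the miR-486 stretch lie at 23 bases, and no other bat row with an arm at least that long has more than 5 reads. The median over all bat rows is 3 reads.

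Other stretches listed on both strands were mostly thinly read, as were the lists as a whole, with a median of 3 reads in each. The bat list held 9 pairs of hairpins that overlap on opposite strands, formed by 17 rows, the dog list 2 pairs, both within the miR-486 stretch, and the horse list 1 pair. Matching mature sequences were listed on both strands in 5 of the 9 bat pairs, among them the miR-486 pair, whose sequences differ at the last base. Apart from miR-486, these were 4 pairs with equal reads on both strands and at most 4 reads per row, and all 8 rows had an arm of at least 23 bases. The remaining bat pairs listed different sequences on the 2 strands, as in Candidate_800 and Candidate_803 with 883 and 1 reads, and Candidate_802 and Candidate_803 with 13 and 1. The horse pair, Candidate_344 and Candidate_355, had 1 and 11 reads of different sequences.

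**Figure D5:**
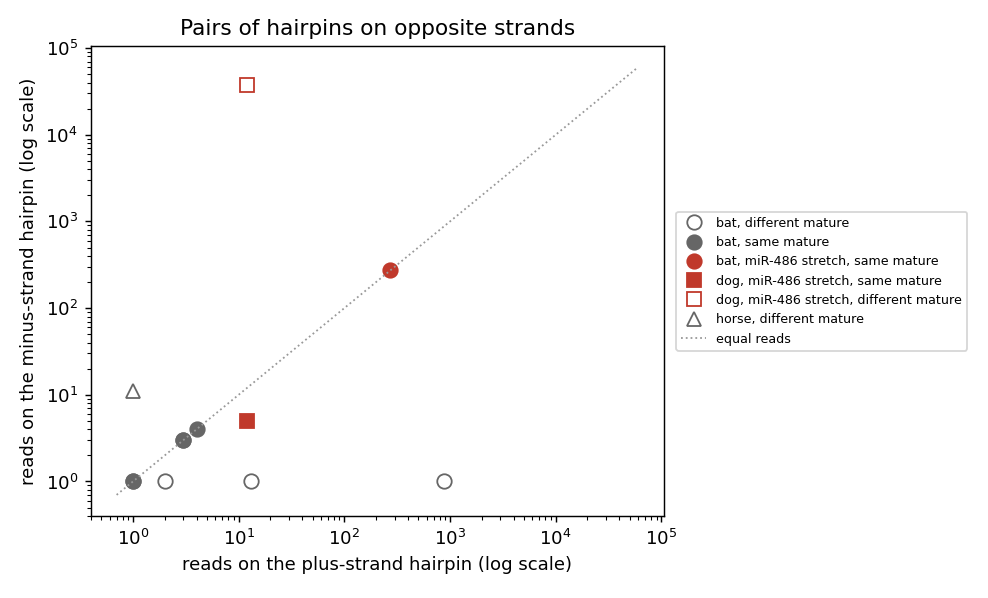
Reads on the minus-strand hairpin (vertical axis, log scale) against reads on the plus-strand hairpin (horizontal axis, log scale) for pairs of hairpins on opposite strands of 1 stretch. Filled symbols (same mature) are pairs with matching mature sequences, which may differ at the end. Red symbols are the miR-486 stretch, and some points coincide. The bat miR-486 pair, with 273 and 276 reads, lies on the line of equal reads; the dog pairs lie off it, with 12 reads against 37280 and 12 against 5.

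Between bat and dog the arms were identical and the loop was not. Aligned in the direction of the dog minus strand, bat Candidate_460 and dog Candidate_165 were 91.7% identical over 133 aligned positions, with 9 substitutions and 2 gap positions. Both arms of 23 bases had 0 differences. The loop of 18 bases held 5 of the 9 substitutions and was 72.2% identical. The flank before the 5p arm had 3 substitutions in 34 positions, and the flank after the 3p arm had 1 substitution and 2 gap positions in 35. The differences thus lay outside the stretch that holds the first 22 bases of the mature sequences.

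No horse row matched miR-486. None of the 439 horse mature sequences matched the dog 5p or 3p sequence within 2 mismatches over 18 bases, and none shared either seed. The closest horse mature sequence differed from the 5p sequence at 5 of 18 bases. In the bat and dog lists, the rows that matched either sequence were all members of the stretch. A candidate list is not a count of all reads, and the sources used here do not say whether known miRNAs were removed, so these rows do not show whether horse testis holds miR-486.

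The stretch had no listed neighbour. The bat contig held no other row. On dog chromosome 16 there were 18 other rows, 0 of them within 10000 bases, and the nearest lay 30785 bases away with 1 read. Other blood and muscle miRNAs, and markers of testis, were not analysed here, because no sequence table to name them was used.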

How the data were processed

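Small RNA of adult testes was sequenced from 1 bat, 1 dog and 1 horse library analysed here. The authors' candidate lists came from a local miRanalyzer installation, according to their note on the columns. The deposited counts, of distinct read sequences and of reads, are raw. As the deposited score, each hairpin has how many of 5 models called it. The deposited fraction is reads over all reads in the authors' analysis, to 3 decimals. The dog build is CanFam3.1 per the submitters' processing notes. The sources used here do not give trimming or mapping. Precision is set by the listed reads, which numbered 89091 (bat), 63429 (dog) and 61054 (horse).

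Mature sequences matched at up to 2 mismatches over 18 bases with starts at most 2 bases apart. Folds used RNAfold 2.7.2, alignments Biopython 1.88, and the rest Python 3.11.15, scipy 1.17.1, pandas 2.3.3 and matplotlib 3.10.9. The functions were tested on simulated sequences. Named rows were the members, list leaders, neighbours in rank and opposite-strand pairs with at least 10 reads, and a list of companion blood and muscle miRNAs was not run. Match rules, denominators and fold settings were varied. Members and settings were chosen with earlier results of these data known. The rule named 1 dog row, and its interval took in 2 more.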

Additional observations from a re-analysis of the deposited data

How the results depend on the processing

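For the 5p sequence, the horse had 0 matches under every alternative run (seed, no mismatch, 4 mismatches, anywhere in the hairpin), and the bat had 2. Dog matches to 5p were 1, or 3 anywhere in a hairpin, since the hairpins of its 3p rows hold the 5p sequence too. For the 3p sequence, the horse had 0 under each of these, the bat 0, or 2 anywhere in a hairpin, and the dog 2, or 3 anywhere in a hairpin. With each identical mature sequence once, the share of listed reads was 0.701% in the bat and 68.4% in the dog. Both bat rows stayed in this share, since their mature sequences differ at the last base, so a possible double count remained. With all 5 models the dog share was 60.5%. Over the authors' total the shares were 0.553 to 0.555% in the bat and 7.28 to 7.35% in the dog, and with 1 bat row the bat share was 0.310%. With at least 10 reads on both strands, opposite-strand pairs numbered 1 each in bat and dog and 0 in the horse. Identity of a dog hairpin with its own reverse complement was 53.5 to 57.1% ungapped, and with gaps it was 68.5% for Candidate_144, 67.5% for Candidate_155 and 66.7% for Candidate_165. Without lonely pairs the energy difference between strands, listed minus other, was -3.90 for Candidate_144, 6.10 for Candidate_155 and 6.20 for Candidate_165, where the default gave -7.10, 9.30 and 9.40. Its sign held in all 5 rows under both other fold settings. Ranked by reads per distinct sequence, the bat rows stood above 91.9 and 92.0% of their list, or above 75.7 and 76.1% of rows with at least 10 reads, and Candidate_144 above 59.5% or 8.16%. This last alternative and the inverted repeats were chosen after seeing the data. No paired analysis was possible because 1 library per species was analysed, the second bat library not being used here, and this limits every comparison.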

Other observations

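The horse hairpins closest to the dog 5p sequence were Candidate_680 and Candidate_686, which overlap on chromosome 15 and listed 1 read each. They differed from its first 18 bases at 3 positions, outside the limit of 2. They were picked after the values were seen.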
